A study of Homo sapiens with 22 samples.

Results

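Alpha-synuclein-overexpressing LUHMES neurons that received 6-hydroxydopamine (6-OHDA) together with quercetin were compared with untreated neurons of the same genotype, to describe which part of the injury response remained while quercetin was present. The comparison took 7 of the 22 RNA libraries of the series, chosen by their titles alone: 3 with 6-OHDA and quercetin and 4 untreated. LUHMES cells come from human embryonic mesencephalon, proliferate under a switchable v-myc transgene and turn into dopaminergic-type neurons when it is off; all cells here were differentiated. Both groups of the comparison overexpress alpha-synuclein, the protein that accumulates in Lewy bodies. Other groups were used as points of comparison: alpha-synuclein cells with 6-OHDA alone (4 libraries), alpha-synuclein cells with 6-OHDA and rutin (3 libraries), wild-type cells with 6-OHDA (4 libraries) and untreated wild-type cells (4 libraries). The design text pairs quercetin with CEBPB. The sources used here do not give doses, exposure times, the promoter that drives alpha-synuclein or whether the line is 1 clone. Every library with quercetin also had 6-OHDA, and cells with quercetin alone were not analysed here, so effects of the toxin and of the compound cannot be told apart in this comparison.

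6-OHDA is taken up by dopaminergic cells and oxidises to quinones and peroxide. Oxidative stress releases the transcription factor NRF2 from its inhibitor KEAP1, and NRF2 then switches on genes for glutathione synthesis, thioredoxin recycling and quinone and haem detoxification. Amino acid shortage, haem deficiency and misfolded protein in the endoplasmic reticulum (ER) all lead to translation of ATF4, the factor behind the integrated stress response, while DNA damage and other stresses raise p53 targets. Quercetin is a plant flavonol with antioxidant and kinase-inhibiting activity, and rutin is a glycoside of it.

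Estimated counts summed to 6386102, 13708919 and 12786391 in the libraries with 6-OHDA and quercetin, against 8107063, 17235347, 20667106 and 19678886 in the untreated libraries. Levels are given in CPM, the usual counts-per-library unit scaled to TMM-corrected library sizes, and a floor of 3 counts was worth 0.168 to 0.429 CPM in these 7 libraries. Some libraries used as points of comparison were shallower. The same floor was worth 0.907 to 1.49 CPM in replicates 2 to 4 of wild-type cells with 6-OHDA. In replicates 1 to 3 of 6-OHDA alone it was worth 0.498 to 1.08 CPM. The library names place all 3 quercetin libraries on sequencing lane 2 and all 4 untreated libraries on lane 1, so lane and group cannot be told apart. The names of untreated replicates 3 and 4 also list 4 barcode numbers each. On the first principal component of the 11 libraries without rutin from alpha-synuclein cells, which held 52.4% of the variance, the quercetin libraries lay within -42.2 to -41.9 and the untreated ones within 55.7 to 72.6. The libraries with 6-OHDA alone lay within -44.6 to -41.0, apart from replicate 4 at 0.424. On the second component, with 10.6% of the variance, replicate 2 of 6-OHDA alone lay at -66.9 and the other 10 libraries within -4.17 to 17. The number of genes called against 6-OHDA alone is given with and without each of its libraries. The labels do not state that replicates were grown separately; the p-values therefore describe the spread among these libraries alone, which may be technical.

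With 6-OHDA and quercetin, 8864 of 16601 genes tested (53.4%) differed from untreated cells at an adjusted p under 0.05 by edgeR's quasi-likelihood test, which gave all adjusted p-values here; genes past that threshold are termed called. Of these, 4294 were higher (25.9% of genes tested) and 4570 lower (27.5%). A change of 2-fold or more was called for 3360 genes (20.2%), 2050 of them higher (12.3%) and 1310 lower (7.89%). The libraries of the groups did not overlap for 9578 genes (57.7%), and 8281 genes (49.9%) were both called and free of overlap. The split depended on scaling: with library totals in place of TMM factors, 7609 genes were higher and 2430 lower, and the median log2 change of all genes was 0.41 in place of 0.04. TMM factors were 1.12 in all quercetin libraries and 0.843 to 0.890 in the untreated ones.

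Among the 12 largest rises were HMOX1, KLF4, FOSB, FOS and GDF15. HMOX1, the haem-degrading enzyme haem oxygenase (GRCh38 chr22:35380361-35394214, plus strand), stood at 90.0, 73.4 and 51.6 CPM with 6-OHDA and quercetin, against 1.14, 0.207, 0.615 and 0.457 CPM in untreated cells (log2 change 7.03 ± 0.47, SE; adjusted p 1.44e-10). These 12 rises were taken only from genes whose libraries did not overlap, as held for 57.7% of all genes. FOS, an AP-1 subunit, stood at 20.5, 20.1 and 19.0 CPM with 6-OHDA and quercetin, against 0.143 to 1.03 CPM in untreated cells (log2 change 5.05). Its relative FOSB averaged 50.8 ± 2.2 CPM with 6-OHDA and quercetin and 1.48 ± 0.31 CPM in untreated cells (SD, n = 3 and 4; log2 change 5.13). KLF4, a zinc-finger transcription factor, rose by 5.90, DIO3, which inactivates thyroid hormone, by 5.67, and GDF15, a secreted stress cytokine, by 4.89 on the log2 scale. FAM114A1 (6.13), HIST1H1T (5.66), CRTAC1 (5.49) and LNP1 (5.46) were also among the 12 largest rises. HIST2H2AA3, a replication-dependent histone gene with a near-identical copy, and AC022506.1 had no count in any untreated library. Against a floor of 3 counts over the untreated group they were at least 212-fold and at least 154-fold higher. The call for HIST2H2AA3 did not hold without untreated replicates 3 and 4 (adjusted p 0.0767).

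Among the 12 largest falls were PENK, ELAVL4 and NCAM2. PENK, the enkephalin precursor, stood at 1.55, 1.18 and 1.05 CPM with 6-OHDA and quercetin, against 40.6, 36.4, 28.9 and 33.2 CPM in untreated cells (log2 change -4.82 ± 0.32; adjusted p 1.44e-10). ELAVL4, the neuronal RNA-binding protein HuD, stood at 1.83, 1.18 and 2.04 CPM with 6-OHDA and quercetin, against 34.7, 38.02, 28.4 and 40.2 CPM in untreated cells (log2 change -4.41 ± 0.38). NCAM2 and ALCAM, cell adhesion molecules, fell by 3.93 and 3.48, and PLXNA4, a semaphorin co-receptor, fell by 3.53 on the log2 scale. RTP1, SEZ6L, LMO3, PDZRN3, KNCN and SPOCK1 fell by 3.26 to 3.66. LIN28A was lower as well (log2 change -3.82), but with DESeq2 its adjusted p was 0.146. In these bulk samples, fewer cells of a type and less RNA per cell cannot be told apart.

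**Figure D1:**
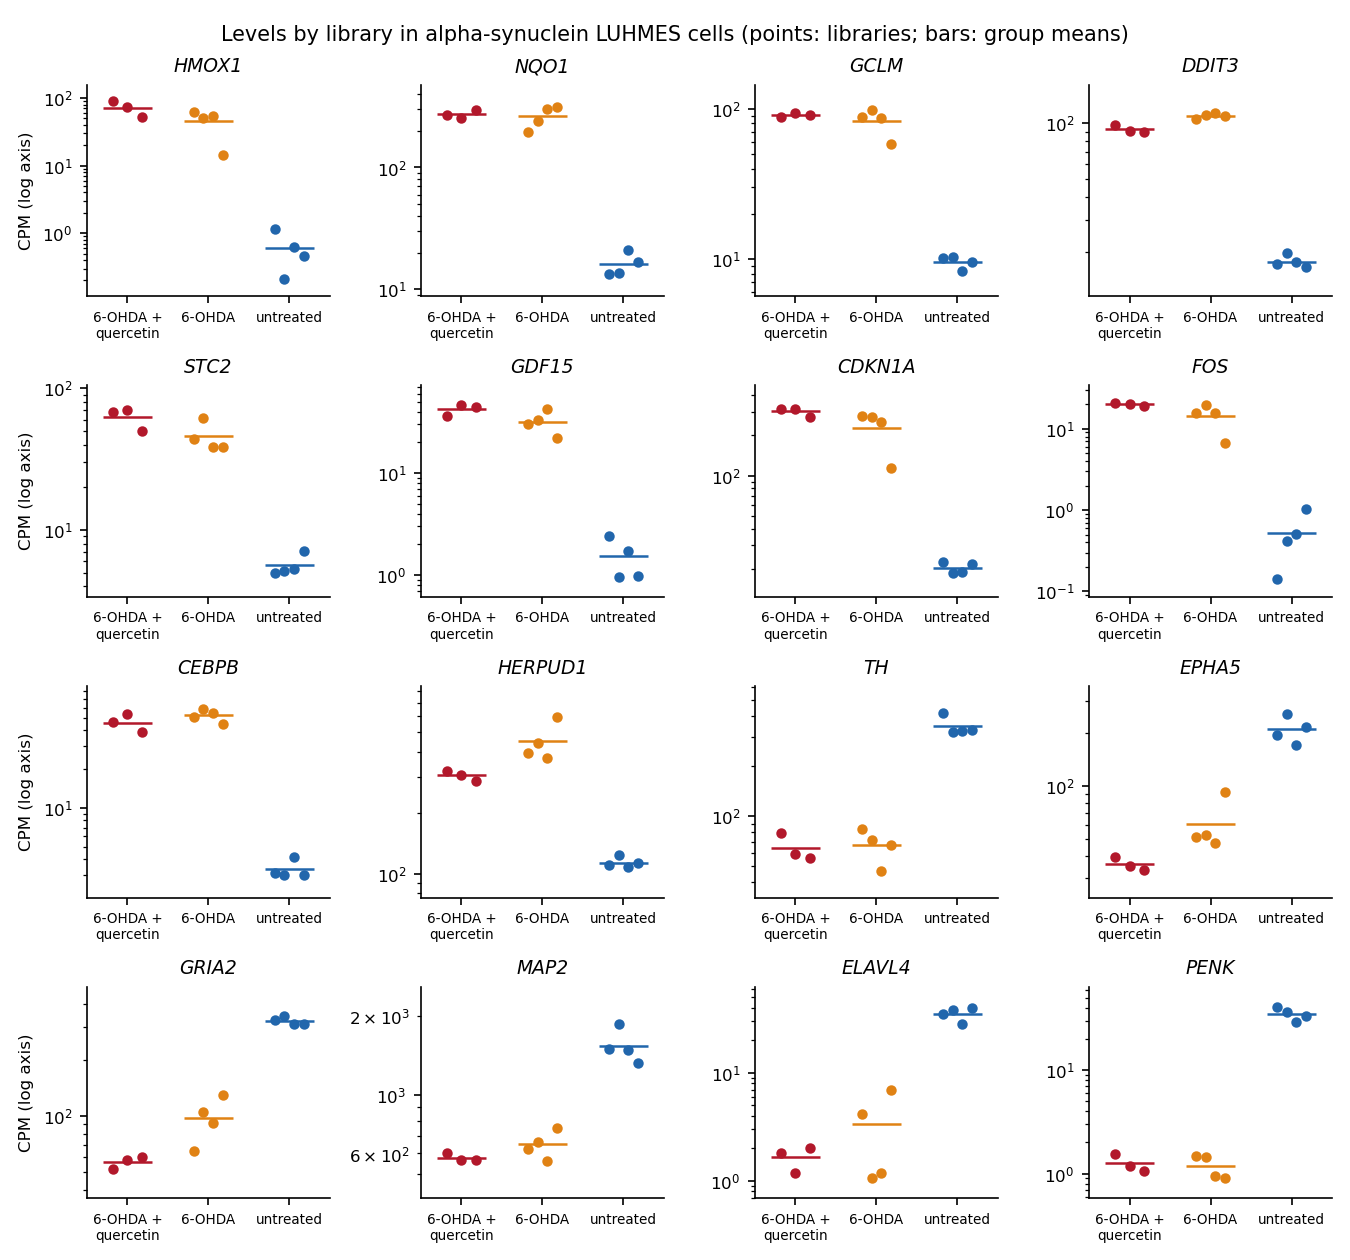
CPM on a log axis in each library of alpha-synuclein cells with 6-OHDA and quercetin (left, 3 libraries), with 6-OHDA alone (middle, 4 libraries) and untreated (right, 4 libraries), for 16 genes; points are libraries and bars are group means. In each panel the quercetin points lie apart from all untreated points, such as 51.6 to 90.0 CPM against 0.207 to 1.14 CPM for HMOX1. Most of these genes were named for their change or lack of overlap in this comparison, and 57.7% of all genes tested did not overlap. Replicate 4 of 6-OHDA alone lies nearest the untreated cells for HMOX1, CDKN1A, FOS and ELAVL4.

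NRF2 targets were higher in cells with 6-OHDA and quercetin: 14 of 16 tested were called higher and 1 lower, with a median log2 change of 1.82, against 25.9% higher, 27.5% lower and a median of 0.04 over all genes. NQO1, a quinone reductase (GRCh38 chr16:69706996-69726951, minus strand), stood at 269, 256 and 294 CPM with 6-OHDA and quercetin, against 13.4, 13.6, 21.1 and 16.7 CPM in untreated cells (log2 change 4.05 ± 0.17; adjusted p 2.76e-13). GCLM, the modifier subunit of the enzyme that starts glutathione synthesis, stood at 88.3, 94.3 and 91.1 CPM with 6-OHDA and quercetin, against 10.1, 10.3, 8.33 and 9.54 CPM in untreated cells (log2 change 3.26 ± 0.14). TXNRD1, the cytosolic thioredoxin reductase, stood at 841, 868 and 848 CPM with 6-OHDA and quercetin, against 214, 268, 253 and 235 CPM in untreated cells (log2 change 1.81 ± 0.08). The groups did not overlap for any of these, nor for 57.7% of all genes tested. SLC7A11, the cystine importer, rose by 3.75, PRDX1, a peroxidase, by 3.27, SRXN1, which repairs oxidised peroxiredoxins, by 2.19, and the ferritin heavy chain FTH1 by 1.82 on the log2 scale. With library totals, 15 of the 16 were called higher and none lower. The list's summed level was 4249 to 4581 CPM with 6-OHDA and quercetin and 1810 to 1915 CPM in untreated cells.

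The promoters of the NRF2 list were searched for the letters TGACNNNGC, the core of the antioxidant response element, on both strands of the 250 bases before each annotated start (RefSeq, GRCh38.p14). The table held 12 of the 18 list genes, and 4 of those 12 (33.3%) had a match, against 3013 of 27305 promoters (11%). Those of the measured members are printed because these genes rose together; capitals mark the match, and the sequences run along the gene's own strand. The match begins 34 bases before the start in GCLM (chr1:93909431-93909494), 99 bases in TXNRD1 (chr12:104215650-104215718) and 201 bases in PGD (chr1:10398833-10398901). PGD, an enzyme of the pentose phosphate pathway, rose by 1.41 on the log2 scale. A match describes these letters and does not show binding.
GCLM: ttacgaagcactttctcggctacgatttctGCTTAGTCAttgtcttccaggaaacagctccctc
TXNRD1: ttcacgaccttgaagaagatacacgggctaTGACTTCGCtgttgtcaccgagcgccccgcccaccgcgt
PGD: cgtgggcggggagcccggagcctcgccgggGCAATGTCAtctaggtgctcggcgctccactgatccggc

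Antioxidant enzymes outside the NRF2 list did not move together: 5 of 16 were called higher and 6 lower, against 25.9% and 27.5% of all genes. Their median was -0.17, or 0.19 with library totals. SOD1, the cytosolic superoxide dismutase, averaged 260.1 ± 26.2 CPM with 6-OHDA and quercetin and 122.9 ± 8.99 CPM in untreated cells (log2 change 1.08). SOD2, its mitochondrial counterpart, stood at 35.01, 29.8 and 36.6 CPM with 6-OHDA and quercetin, against 90.3, 118, 105 and 77.2 CPM in untreated cells (log2 change -1.53). GSR, glutathione reductase, rose by 1.41, and GSS, glutathione synthetase, fell by 1.32 on the log2 scale. Among 14 ferroptosis and iron genes 6 were higher and 3 lower. TFRC, the transferrin receptor, stood at 167, 171 and 148 CPM with 6-OHDA and quercetin, against 23.6, 23.3, 25.5 and 24.6 CPM in untreated cells (log2 change 2.74). AIFM2, which protects membranes from lipid peroxidation, rose by 2.00, while ACSL4, which loads membranes with polyunsaturated fatty acids, fell by 1.26. The metallothionein MT1X was the member called higher of the 3 tested in its list (log2 change 3.15).

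Among the aldo-keto reductases, 2 of 6 were higher and 1 lower, against 25.9% and 27.5% of all genes. AKR1C2 rose by 1.26 (log2) and AKR7A2 fell by 1.36. AKR1C3, a prostaglandin and steroid reductase, was near the floor at 0.703, 1.70 and 2.81 CPM with 6-OHDA and quercetin, against 0.714, 0.689, 0.894 and 1.31 CPM in untreated cells. Its groups overlapped, and its log2 change of 0.96 ± 0.41 missed the threshold (adjusted p 0.0517; 0.00943 to 0.0492 in the 5 alternative settings in which it was called). Of the aryl hydrocarbon receptor genes, 3 passed the filter: TIPARP rose by 1.69 and CYP1B1 fell by 2.00 on the log2 scale, and AHRR was not called (log2 change 0.28).

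The ATF4 targets and integrated stress response genes were also higher, with 15 of 17 called higher, 1 lower and a median log2 change of 1.41. Of all genes, 25.9% were higher and 27.5% lower. DDIT3, the pro-apoptotic factor CHOP, stood at 97.5, 90.2 and 89.7 CPM with 6-OHDA and quercetin, against 17.3, 19.8, 17.7 and 16.6 CPM in untreated cells (log2 change 2.37 ± 0.08; adjusted p 2.04e-15). ATF3, a repressor and activator induced by many stresses, stood at 35.2, 34.9 and 34.7 CPM with 6-OHDA and quercetin, against 2.00, 2.27, 2.96 and 2.11 CPM in untreated cells (log2 change 3.87 ± 0.31). STC2, a secreted glycoprotein, stood at 68.5, 70.9 and 49.6 CPM with 6-OHDA and quercetin, against 5.00 to 7.14 CPM in untreated cells (log2 change 3.46). DDIT4, an inhibitor of mTORC1, rose by 2.55, CHAC1, which degrades glutathione, by 2.89, the pseudokinase TRIB3 by 2.43 and ASNS, asparagine synthetase, by 1.07. VLDLR was the member that fell (log2 change -1.04). Amino acid transporters followed, with 8 of 10 higher and 2 lower: SLC3A2, the heavy chain shared by several transporters, stood at 1007, 1056 and 850 CPM with 6-OHDA and quercetin, against 173 to 183 CPM in untreated cells (log2 change 2.45). The aminoacyl-tRNA synthetases, which charge tRNAs, did not: 2 of 18 were higher and 7 lower, with a median of -0.14 that became 0.23 with library totals.

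The ATF4 list was searched in the same way for TGATGNAA, the core of the C/EBP-ATF response element. Promoters were found for 17 of its 19 genes, of which 4 (23.5%) held a match, against 870 of 27305 promoters (3.19%). Those of the 3 members tested are shown for the same reason. The match begins 191 bases before the start in ATF3 (chr1:212565186-212565253), 209 bases in CHAC1 (chr15:40953232-40953299) and 68 bases in ASNS (chr7:97872439-97872506).
ATF3: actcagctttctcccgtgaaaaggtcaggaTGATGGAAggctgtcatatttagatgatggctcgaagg
CHAC1: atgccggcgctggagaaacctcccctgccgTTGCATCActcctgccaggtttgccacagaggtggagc
ASNS: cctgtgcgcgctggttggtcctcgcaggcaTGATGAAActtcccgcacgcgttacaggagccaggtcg

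CEBPB, the C/EBP family member named beside quercetin in the design text (ENSG00000172216.5, GRCh38 chr20:50190734-50192689, plus strand), was higher with 6-OHDA and quercetin than in untreated cells. It stood at 46.0, 53.1 and 38.6 CPM with 6-OHDA and quercetin, at 45.0 to 58.5 CPM with 6-OHDA alone, and at 3.14, 3.03, 4.14 and 3.03 CPM in untreated cells. The log2 change against untreated cells was 3.76 ± 0.16 (adjusted p 2.76e-13). Against 6-OHDA alone it was -0.17 ± 0.14, which was not called (adjusted p 0.599). In wild-type cells CEBPB was at 98.1 to 132 CPM after 6-OHDA and 2.12 to 3.47 CPM untreated, a log2 change of 5.27. The rise with quercetin in alpha-synuclein cells was smaller than the rise in wild-type cells by 1.51 ± 0.25 on the log2 scale (adjusted p 0.000493). CEBPG, a partner of ATF4, varied widely in untreated cells: 61.5, 68.8 and 78.3 CPM with 6-OHDA and quercetin, against 20.3, 50.6, 9.05 and 38.2 CPM in untreated cells (log2 change 1.23; adjusted p 0.00674). CEBPD was not called (log2 change 0.20).

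Protein folding and degradation genes were mostly higher. Of 13 heat shock genes, 10 were called higher and none lower (median log2 change 1.22), against 25.9% and 27.5% of all genes. HSP90AB1, a cytosolic HSP90, stood at 377, 345 and 322 CPM with 6-OHDA and quercetin, against 70.9, 66.0, 74.8 and 72.3 CPM in untreated cells (log2 change 2.29). BAG3, a co-chaperone of selective autophagy, rose by 1.79, HSPH1 by 1.52 and DNAJB1 by 1.90. Of 27 proteasome subunits, 22 were higher and 1 lower (median 0.67), with PSMD14, the lid deubiquitinase, rising by 2.05, PSMB7 by 1.55 and PSMB4 by 1.34. PSMD4 was the subunit that fell (log2 change -0.28). Autophagy and lysosome genes lay near the shares of all genes, with 6 of 19 higher and 4 lower. SQSTM1, the cargo receptor p62, stood at 712, 681 and 618 CPM with 6-OHDA and quercetin, against 150.3, 128, 130 and 127 CPM in untreated cells (log2 change 2.33), whereas cathepsin B (CTSB) fell by 1.13.

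ER chaperones and unfolded protein response genes rose in part: 10 of 18 were called higher and none lower, against 25.9% and 27.5% of all genes. Their median log2 change was 0.85. HERPUD1, part of ER-associated degradation, stood at 323, 307 and 288 CPM with 6-OHDA and quercetin, at 393, 444, 375 and 597 CPM with 6-OHDA alone, and at 109.7, 123.4, 108 and 113 CPM in untreated cells. The quercetin libraries lay between the other groups without overlap. XBP1, the transcription factor of the IRE1 branch, stood at 384, 379 and 359 CPM with 6-OHDA and quercetin, against 157 to 177 CPM in untreated cells (log2 change 1.15). EDEM1, which extracts misfolded glycoproteins, rose by 1.34 and PDIA4, a disulfide isomerase, by 1.22. The chaperones CALR, CANX, PDIA3, PDIA6, DNAJB11 and MANF had log2 changes of at most 0.33 and were not called. In wild-type cells after 6-OHDA, 17 of these 18 genes were higher (median 1.65; 25.8% of all genes), and with 6-OHDA alone in alpha-synuclein cells 16 were higher (median 1.31; 22.9% of all genes). With library totals, 17 of the 18 were called higher with 6-OHDA and quercetin. The changes with quercetin were smaller than those in wild-type cells for 11 of the 18 (10.2% of all genes were lower in this difference), among them EDEM1 by 1.56, PDIA4 by 1.37 and HERPUD1 by 0.58 on the log2 scale, and larger for none. Without quercetin replicate 3, or without untreated replicates 3 and 4, they were smaller for 7. Genotype, lane and compound all differ between these changes and cannot be told apart.

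Set directly against 6-OHDA alone on the same lane, 9 of the 18 ER genes were lower with quercetin, against 1.97% of all genes: HSP90B1, PDIA3, PDIA4, PDIA6, CALR, DNAJB11, HYOU1, MANF and HERPUD1, with log2 differences of -1.10 to -0.57. This count rested on few libraries. Without replicate 4 of 6-OHDA alone 3 were called, without quercetin replicate 1 there was 1, without quercetin replicate 2 or 3 there were none, in a fit of these groups alone there were none, and without replicate 1, 2 or 3 of 6-OHDA alone there were 10, 9 and 8. The list's median difference was -0.58, and -0.40 without replicate 4. Its summed level was 3476 to 3687 CPM with 6-OHDA and quercetin, 4300 to 7777 CPM with 6-OHDA alone and 2744 to 2940 CPM in untreated cells.

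**Figure D2:**
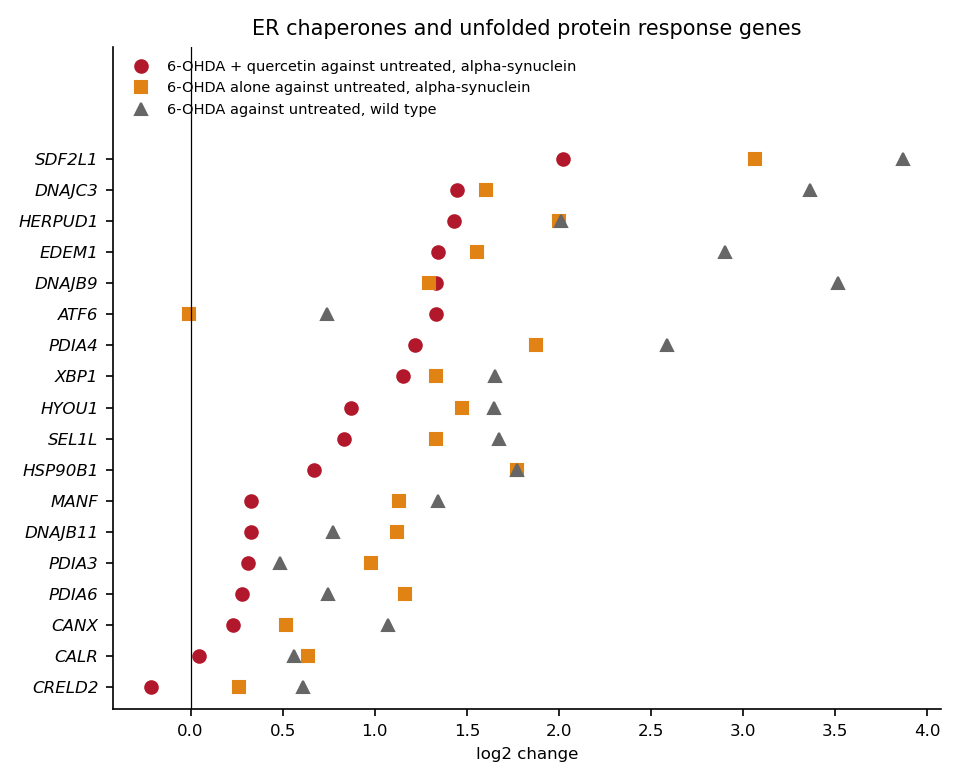
Log2 changes of 18 ER chaperone and unfolded protein response genes with 6-OHDA and quercetin against untreated alpha-synuclein cells (circles), with 6-OHDA alone against the same untreated cells (squares) and with 6-OHDA against untreated wild-type cells (triangles). The first 2 changes share their untreated libraries; the circle lies left of the triangle for all genes but ATF6, with medians of 0.85 and 1.65.

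Of 19 p53 targets, 13 were called higher and 1 lower (median 1.13), against 25.9% and 27.5% of all genes. CDKN1A, the cell cycle inhibitor p21, stood at 318, 317 and 274 CPM with 6-OHDA and quercetin, against 22.3, 18.5, 19.1 and 21.7 CPM in untreated cells (log2 change 3.90 ± 0.22; adjusted p 2.16e-11). The pro-apoptotic genes PMAIP1 (NOXA) and BBC3 (PUMA) rose by 3.22 and 1.69, and the death receptors FAS and TNFRSF10B by 1.78 and 1.68. The BCL2 family itself lay near the shares of all genes, with 3 of 12 higher and 3 lower. BAK1 rose by 0.99, while HRK fell by 1.06 and BCL2L2 by 0.75. Of 14 immediate-early genes, 10 were higher and none lower (median 2.43), EGR3 by 4.32 and ARC by 2.97 among them. MAP kinase feedback inhibitors split with 2 of 11 higher and 4 lower, and a median of -0.13 that became 0.24 with library totals. DUSP6, an ERK phosphatase, stood at 1.97, 2.16 and 2.32 CPM with 6-OHDA and quercetin, against 14.7, 10.3, 12.6 and 7.37 CPM in untreated cells (log2 change -2.35), and SPRY4 fell by 1.77. The NF-kappaB subunit RELB rose by 1.61, 1 of 3 called higher among 7 tested in its list. IRF1 stood at 13.5, 11.7 and 10.8 CPM with 6-OHDA and quercetin, against 0.689 to 1.29 CPM in untreated cells (log2 change 3.55), 1 of 6 higher and 1 lower among 11 interferon-stimulated genes.

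Of 20 cholesterol synthesis genes 1 was higher and 11 lower (median -0.40), against 25.9% and 27.5% of all genes. With library totals 4 were higher and 4 lower (median -0.04). DHCR7, LSS, HMGCS1 and FDPS fell by 1.33, 1.21, 1.12 and 1.04. INSIG1, which restrains the pathway, was the member that rose (log2 change 1.21). Glycolysis and hypoxia genes split with 8 of 18 higher and 6 lower. EGLN3, a prolyl hydroxylase induced in hypoxia, rose by 3.70, and VEGFA stood at 215, 226 and 199 CPM with 6-OHDA and quercetin, against 125, 122.2, 122.8 and 149 CPM in untreated cells (log2 change 0.71), while SLC2A1 and LDHA fell by 0.58 and 0.72. ADM had 1 untreated library above 0, at 0.0689 CPM, under the floor of 3 counts, and 3.30 to 4.64 CPM with 6-OHDA and quercetin. Of 24 cytosolic ribosomal protein genes, whose reads can be split with pseudogenes, 11 were higher and none lower (median 0.23).

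Nuclear genes of the respiratory chain were called lower for 10 of 19 and higher for 2 (median -0.26), against 27.5% and 25.9% of all genes. With library totals, however, 4 were lower and 4 higher (median 0.11). NDUFV1 of complex I fell by 0.95 on the log2 scale. The 13 mitochondrially encoded mRNAs had log2 changes of -0.73 to -0.04 (median -0.37, or 0.00 with library totals), and 2 were called, MT-ND5 and MT-ATP8; their adjusted p of 0.0347 and 0.0242 rose above 0.05 without quercetin replicate 2 or 3 or untreated replicate 1 or 4, MT-ND5's also without untreated replicate 2. As a share of all counts, mitochondrial genes took 1.21% ± 0.20 with 6-OHDA and quercetin and 1.06% ± 0.14 in untreated cells (SD, n = 3 and 4). This difference of 0.146 percentage points lay within the spread (two-sided exact permutation test over 35 arrangements of the libraries, p = 0.343). In wild-type cells all 13 mRNAs were lower after 6-OHDA, against 26.2% of all genes (median -1.18; 12 and -0.90 with library totals). The change with quercetin lay above the wild-type change for 6 of the 13, against 6.07% of all genes, such as MT-ND5 by 0.97 ± 0.23 (log2; adjusted p 0.0059), and below it for none. Without quercetin replicate 1, or without untreated replicates 3 and 4, it lay above for 3. With 6-OHDA alone in alpha-synuclein cells the median log2 change of the 13 was -0.49. None of the 13 was called between quercetin and 6-OHDA alone, against 2.53% of all genes. Genotype, lane and compound all differ between the quercetin and wild-type changes and cannot be told apart.

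Neuronal genes were mostly lower. Axon guidance and adhesion genes were called lower for 16 of 24 and higher for 2 (median -1.40), against 27.5% and 25.9% of all genes. EPHA5, an ephrin receptor, stood at 39.8, 35.2 and 33.7 CPM with 6-OHDA and quercetin, against 193, 255, 171 and 215 CPM in untreated cells (log2 change -2.53), and ROBO1, the Slit receptor, fell by 1.41. DCC, UNC5D, NCAM1 and L1CAM fell by 2.54, 2.77, 2.06 and 1.39. Of 16 voltage-gated channel genes, 12 were lower and 2 higher (median -0.88): SCN9A fell by 1.92 and CACNA1A by 1.06, and KCNQ3 rose by 1.33. Cytoskeletal and identity genes were lower for 11 of 14 (median -0.72). MAP2, a dendritic microtubule protein, stood at 604, 568 and 565 CPM with 6-OHDA and quercetin, against 1490, 1866, 1478 and 1321 CPM in untreated cells (log2 change -1.41 ± 0.10). GAP43 and DCX fell by 1.56 and 1.65. NEFH, the heavy neurofilament, and TUBB3 were the members that rose, by 1.28 and 0.52.

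Synaptic genes were lower for 11 of 17 and higher for 2 (median -0.53), against 27.5% and 25.9% of all genes. CPLX2 and SYP fell by 1.70 and 0.65, and CPLX1 and VAMP2 rose by 1.51 and 0.75. Glutamate and GABA receptor genes lay nearer those shares of all genes, with 3 of 14 higher and 5 lower. GRIA2, the AMPA receptor subunit that sets calcium permeability, stood at 51.5, 58.0 and 60.3 CPM with 6-OHDA and quercetin, against 328, 345, 313 and 310.2 CPM in untreated cells (log2 change -2.51 ± 0.16). Dopaminergic genes also lay nearer the shares of all genes, with 4 of 14 higher and 5 lower. TH, tyrosine hydroxylase, the rate-limiting enzyme of dopamine synthesis (GRCh38 chr11:2163929-2171877, minus strand), stood at 78.9, 58.9 and 55.7 CPM with 6-OHDA and quercetin, against 419, 321, 323 and 331 CPM in untreated cells (log2 change -2.44 ± 0.16; adjusted p 1.61e-10). RET, the GDNF co-receptor, fell by 2.02 and SLC6A3, the dopamine transporter, by 0.79. GCH1, which supplies the cofactor of TH, stood at 21.0, 17.1 and 26.0 CPM with 6-OHDA and quercetin, against 5.86, 5.65, 1.79 and 1.37 CPM in untreated cells (log2 change 2.64), and MAOA rose by 1.55. The developmental factors PITX3, LMX1A and FOXA2 did not pass the filter on low counts. Among familial Parkinson disease genes, 1 of 11 was higher and 4 lower, with ATP13A2, PLA2G6 and VPS35 falling by 1.03, 0.86 and 0.54 and a median of -0.25 that became 0.12 with library totals.

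With library totals, the members called higher became 15 of 19 for autophagy and lysosome genes, 23 of 24 for ribosomal proteins, 13 of 18 for glycolysis and hypoxia genes, 7 of 14 for dopaminergic genes, 6 of 12 for the BCL2 family, 6 of 14 for glutamate and GABA receptors and 5 of 6 for aldo-keto reductases. Synaptic genes called lower became 7 of 17, while axon guidance, channel and cytoskeletal genes stayed mostly lower, with 15 of 24, 11 of 16 and 8 of 14.

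**Figure D3:**
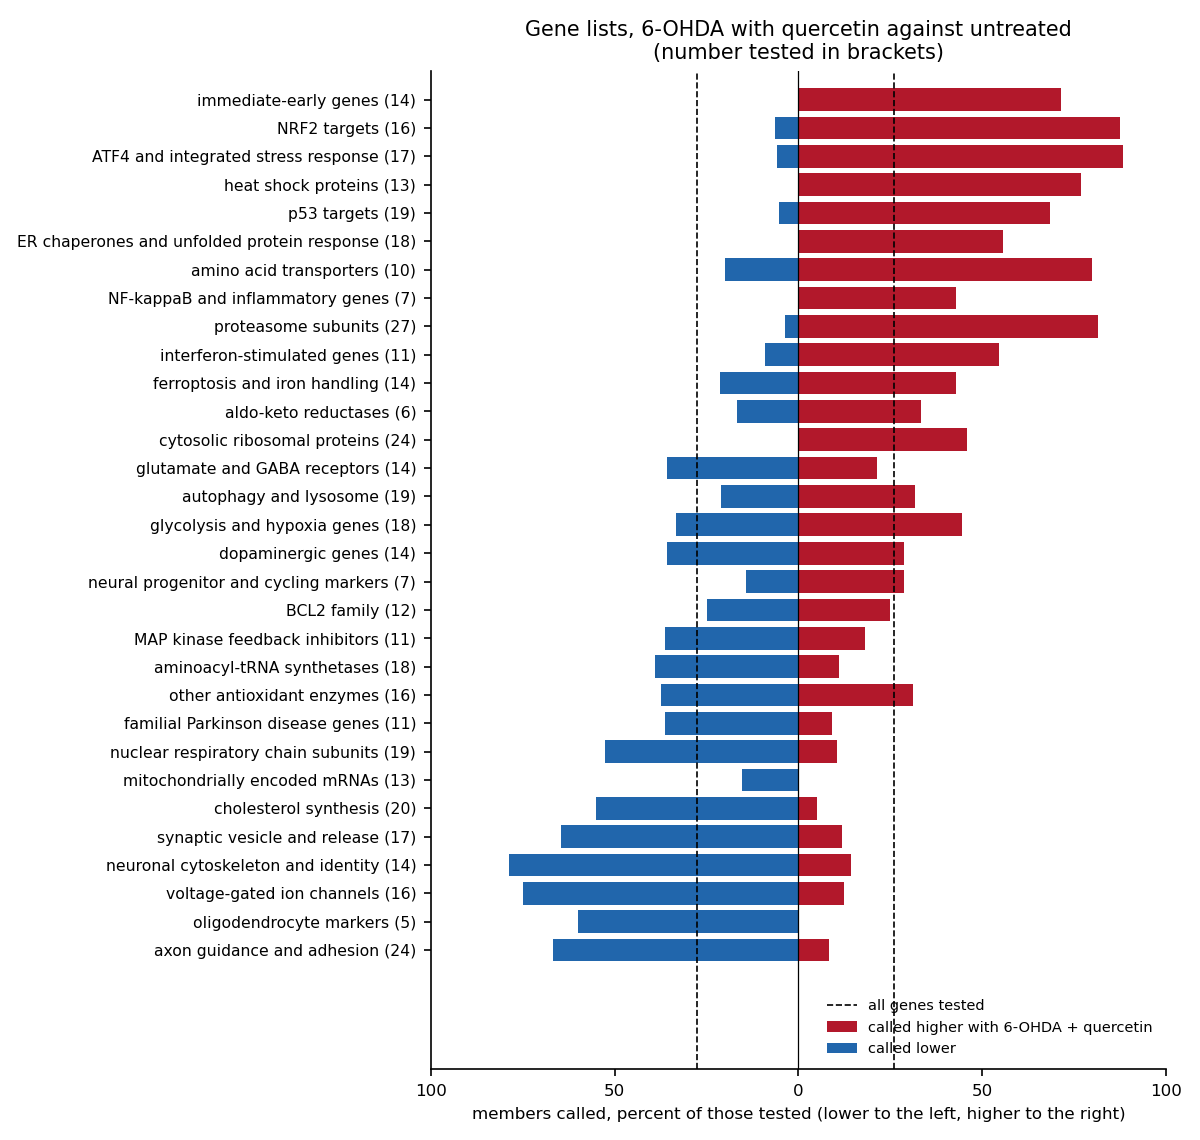
Percent of tested members called higher (right) or lower (left) with 6-OHDA and quercetin against untreated cells, for the gene lists with 5 or more members tested, ordered by median log2 change; dashed lines mark all genes tested (25.9% higher, 27.5% lower). NRF2 and ATF4 lists reach 87.5% and 88.2% higher near the top, and axon guidance (66.7%) and channel genes (75%) are lower near the foot.

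The oligodendrocyte-lineage genes OLIG1, OLIG2 and MBP were lower with 6-OHDA and quercetin (log2 changes -2.32, -1.09 and -1.58), 3 of 5 tested, against 27.5% of all genes. Summed levels of the 5 were 47.8 to 50.7 CPM with 6-OHDA and quercetin and 122.7 to 157 CPM in untreated cells. The astrocyte genes GFAP and ALDH1L1 were not called, but were called higher with library totals or in a fit of these groups alone (adjusted p 0.0054 to 0.0375). GFAP was also called without replicate 4 of 6-OHDA alone or untreated replicate 1 (adjusted p 0.0414 and 0.0472), and ALDH1L1 without untreated replicate 4 (0.0393). SLC1A3 was called (log2 change 1.25; adjusted p 0.0362, above 0.05 without quercetin replicate 1 or 2 or untreated replicate 1 or 2). AQP4 stayed at or under 0.281 CPM in both groups. S100B, also not tested, stood at 0.844 to 1.37 CPM with 6-OHDA and quercetin and 0.286 to 0.671 CPM in untreated cells. Summed astrocyte levels were 19.7 to 22.6 CPM with 6-OHDA and quercetin and 10.4 to 14.8 CPM in untreated cells. Of the microglia genes, CSF1R was higher (log2 change 0.85), and AIF1, CX3CR1, P2RY12 and TYROBP stayed at or under 0.844 CPM in both groups, with AIF1 at 0 in all untreated libraries. Of 7 progenitor and cycling genes, HES1 and PAX6 were higher (log2 changes 3.32 and 0.82) and CCNB1 lower (-0.54). CCNB1 was not called with library totals, without quercetin replicate 1 or 2, without untreated replicate 3 or without untreated replicates 3 and 4 (adjusted p 0.0867 to 0.466). MKI67 stood at 8.02 to 19.2 CPM with 6-OHDA and quercetin and 23.4 to 63.6 CPM in untreated cells and was not called, but was called lower with no low-count filter, in a fit of these groups alone, without replicate 4 of 6-OHDA alone or without untreated replicate 2 (adjusted p 0.00777 to 0.0459). VIM stood at 165 to 208 CPM with 6-OHDA and quercetin and 142 to 205 CPM in untreated cells and was not called. The part of these cells in the results above was not tested.

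To ask how much of an injury response seen without the compound remained, genes called and changed 2-fold or more after 6-OHDA in wild-type cells were taken as the injury response. That comparison lies within lane 1 and shares no library with the quercetin comparison. It called 52% of genes tested, among them 2027 genes higher by 2-fold or more (12.2%) and 1337 lower (8.05%). With 6-OHDA and quercetin, 1547 of the 2027 (76.3%) were also called higher than in untreated alpha-synuclein cells, against 25.9% of all genes, and 1178 of them by 2-fold or more. Of the 1337, 1097 (82%) were also called lower, against 27.5% of all genes, and 668 of them by 2-fold or more. Of the rest, 476 of the higher and 240 of the lower injury genes were not called, and 4 of the higher ones were called lower. Without untreated replicates 3 and 4 the shares were 64.2% and 77%, and with library totals 85.9% of 3244 and 74.3% of 719.

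The 4 genes called in opposite directions were PTGDS, KIAA2013, TRAF7 and NPTXR, named after their values were seen. With 6-OHDA alone, KIAA2013 and TRAF7 were also called lower than in untreated alpha-synuclein cells (log2 changes -0.635 and -0.715). PTGDS and NPTXR were not called there (adjusted p 0.511 and 0.0801). For KIAA2013 and NPTXR the quercetin and untreated libraries overlapped. PTGDS, a prostaglandin D synthase, stood at 43.0, 45.2 and 39.9 CPM with 6-OHDA and quercetin, against 96.4, 70.1, 66.6 and 118 CPM in untreated alpha-synuclein cells (log2 change -1.04). In wild-type cells it stood at 81.9 to 125 CPM with 6-OHDA, against 45.4 to 51.6 CPM untreated (log2 change 1.08). NPTXR was under the floor of 3 counts in all 3 quercetin libraries and at 0 in untreated wild-type cells, so no fold is given.

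Over all genes tested, 2672 were called higher in both comparisons, 62.2% of the genes higher with 6-OHDA and quercetin and 62.5% of those higher in wild-type cells. Another 3077 were called lower in both (67.3% and 70.6%). Opposite calls were fewer: 36 genes were higher with 6-OHDA and quercetin and lower in wild-type cells, and 162 were the reverse. Across the 16601 genes the log2 changes had a Pearson r of 0.742 and a Spearman rho of 0.741, given as a description, since genes are not independent replicates and both comparisons share the scaling. Among the injury genes the median log2 change was 1.14 with 6-OHDA and quercetin and 1.5 in wild-type cells for the higher ones, and -1.01 and -1.34 for the lower ones. The injury genes were chosen by the size of their wild-type change, so these medians are a description.

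**Figure D4:**
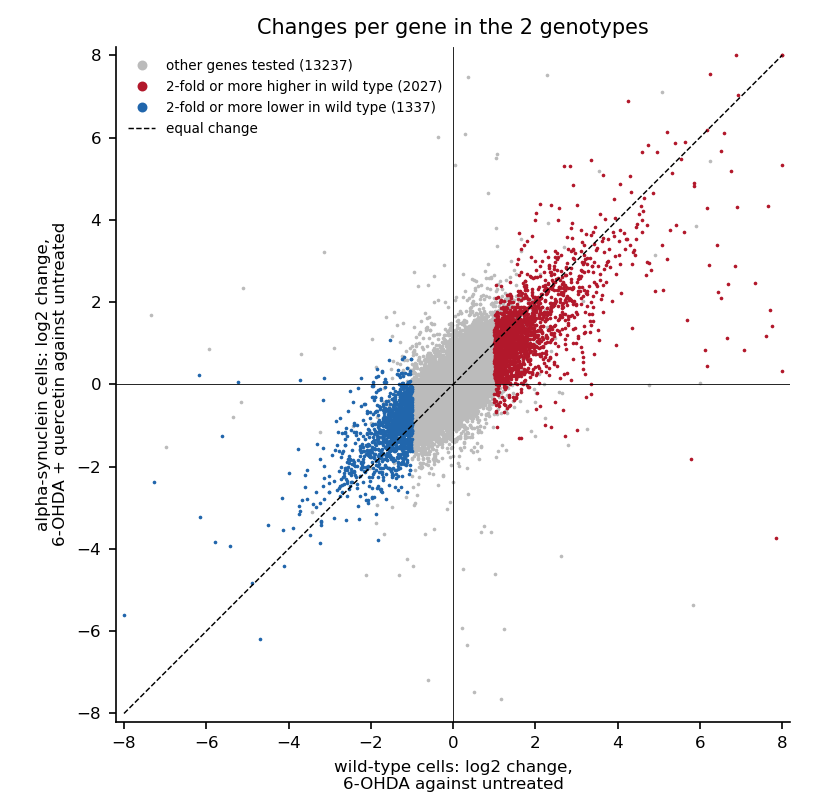
Log2 change of each of 16601 genes with 6-OHDA and quercetin against untreated alpha-synuclein cells (vertical) and with 6-OHDA against untreated wild-type cells (horizontal); colours mark the 2027 genes higher and the 1337 lower by 2-fold or more in wild-type cells, the dashed line marks equal change, and 6 genes beyond a log2 of 8 are drawn at that limit. Most coloured points lie on the same side of 0 on both axes, and the Pearson r is 0.742.

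The difference between the changes, in which genotype, lane and compound cannot be told apart, was tested directly across all genes. It was called for 2701 of 16601 genes (16.3%), 1008 with a higher value in the quercetin comparison (6.07%) and 1693 with a lower one (10.2%). With library totals this split was 1780 and 1386, without untreated replicates 3 and 4 it was 344 and 1041, and without quercetin replicate 3 it was 689 and 975. Of the injury genes, 276 of the higher ones changed less and 5 changed more with 6-OHDA and quercetin, and 284 of the lower ones changed less and 25 more, among genes picked for a large wild-type change. The 5 were TXNRD1, NXPE3, LVRN, CFAP43 and AC122718.2, named after their values were seen. TXNRD1 stood at 539 to 616 CPM in wild-type cells with 6-OHDA and 226 to 266 CPM in untreated ones. Its rise with 6-OHDA and quercetin was larger than in wild-type cells by 0.57 ± 0.10 on the log2 scale (adjusted p 0.00103). With 6-OHDA alone in alpha-synuclein cells TXNRD1 stood at 724 to 815 CPM (log2 change 1.65 against untreated). Its log2 difference between quercetin and 6-OHDA alone was 0.16 and was not called (adjusted p 0.277). Among ATF4 genes the change was smaller than in wild-type cells for 7 of 17, DDIT3 by 0.77 and ATF3 by 1.55 among them. This count was 3 without quercetin replicate 3 or without untreated replicates 3 and 4, and 4 without quercetin replicate 2 or untreated replicate 3. The median log2 change of the ATF4 list was 1.41 with 6-OHDA and quercetin, 1.36 in wild-type cells and 1.57 with 6-OHDA alone. None of the 17 was called between quercetin and 6-OHDA alone, against 2.53% of all genes, while DESeq2 called 3 of 18 lower. VEGFA's rise was smaller by 0.73. TH fell further than in wild-type cells, where it stood at 116.4 to 135 CPM with 6-OHDA and 354 to 401 CPM untreated (difference -0.87 ± 0.21; adjusted p 0.00679).

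The injury genes with the largest differences varied widely between untreated alpha-synuclein libraries. FBXO45, a ubiquitin ligase subunit, stood at 14.1 to 22.2 CPM with 6-OHDA and quercetin and 5.29 to 31.5 CPM in untreated alpha-synuclein cells. In wild-type cells FBXO45 stood at 0 to 3.03 CPM with 6-OHDA and 18.9 to 28.1 CPM untreated. A floor of 3 counts was worth 0.226 to 1.49 CPM in the wild-type libraries with 6-OHDA. CCNI, a cyclin, stood at 28.3 to 77.5 CPM with 6-OHDA and quercetin and 14.5 to 119 CPM in untreated alpha-synuclein cells, against 113 to 182 CPM with 6-OHDA and 16.0 to 54.6 CPM untreated in wild-type cells. None of the 16 genes the rule picked here was called in the quercetin comparison itself, and their libraries overlapped in both examples.

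Against 6-OHDA alone, which lies on the same lane, 420 genes (2.53%) were called, 93 higher with quercetin (0.56%) and 327 lower (1.97%). Without replicate 4 of 6-OHDA alone this came to 84 genes, 21 higher and 63 lower, and a fit of these groups alone called 2. Leaving out replicate 1, 2 or 3 of 6-OHDA alone gave 896, 519 and 727, and leaving out quercetin replicate 1, 2 or 3 gave 98, 26 and 73. Library totals moved the split to 177 higher and 247 lower. Of the 2027 higher injury genes, 31 were higher and 27 lower with quercetin than with 6-OHDA alone, and of the 1337 lower ones 5 were higher and 65 lower. The median log2 change of these sets against untreated cells was 1.14 and -1.01 with 6-OHDA and quercetin and 0.97 and -0.77 with 6-OHDA alone. These medians share their untreated libraries and the second holds replicate 4.

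BAG3 was higher than with 6-OHDA alone, at 350, 336 and 270 CPM with 6-OHDA and quercetin, against 224, 224, 222 and 119 CPM with 6-OHDA alone (log2 difference 0.70; adjusted p 0.0241, and 0.51 with 0.0339 without replicate 4), but was not called without quercetin replicate 1, 2 or 3 (adjusted p 0.118, 0.111 and 0.0523). WARS1, tryptophanyl-tRNA synthetase, was lower (log2 difference -0.96, and -0.62 with adjusted p 0.0155 without replicate 4), as was GRIA2, at 51.5 to 60.3 CPM with 6-OHDA and quercetin and 64.3 to 129 CPM with 6-OHDA alone (-0.79, and -0.59 without replicate 4). Without quercetin replicate 2 neither was called (adjusted p 0.0601 for WARS1 and 0.0554 for GRIA2). RELB (1.14) and SPRY4 (1.15) were higher, but not called without replicate 4 (adjusted p 0.051 and 0.155). The 5 lower injury genes called higher than with 6-OHDA alone were CCND1, ARHGEF26, EOMES, SPRY1 and SPRY4, and ARHGEF26 was the one still called without replicate 4 (log2 difference 0.87; adjusted p 0.0413). It was not called without quercetin replicate 1, 2 or 3 (adjusted p 0.0504, 0.064 and 0.0549). EOMES was near the floor with 6-OHDA alone, at 0.284 to 1.08 CPM. BAG3, WARS1, GRIA2, RELB and ARHGEF26 were called without replicate 1, 2 or 3 of 6-OHDA alone, and none of these 5 was called in a fit of these groups alone (adjusted p 0.157 to 0.212). HMOX1, NQO1, CDKN1A and TH differed from 6-OHDA alone by 0.70, 0.05, 0.41 and -0.07 on the log2 scale, and none was called.

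Against rutin with 6-OHDA, at doses and times the sources used here do not state, 1 gene of 16601 was called (0.00602%), and 1481 had an unadjusted p under 0.05. The gene was SNCG, which encodes gamma-synuclein and was named after its value was seen. SNCG stood at 27.1, 31.5 and 28.7 CPM with 6-OHDA and quercetin, at 64.7, 54.8 and 51.1 CPM with 6-OHDA and rutin, at 40.7 to 64.3 CPM with 6-OHDA alone, and at 107 to 127 CPM in untreated cells. The quercetin libraries lay below every other alpha-synuclein library (log2 difference from rutin -0.97 ± 0.14; adjusted p 0.0101). It was not called without quercetin replicate 1 or 3 or rutin replicate 1 (adjusted p 0.139, 0.0661 and 0.162). Against 6-OHDA alone the log2 difference was -0.90 (adjusted p 0.00398), and -0.79 without replicate 4 (adjusted p 0.0126), but it was not called in a fit of these groups alone (adjusted p 0.146). The fall of SNCG against untreated cells was larger than in wild-type cells, -2.04 and -0.53 on the log2 scale (difference -1.50 ± 0.18; adjusted p 3.44e-05).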

How the data were processed

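RNA libraries were made with an MGIEasy kit from RNA isolated with an InnuPREP kit, per the labels' protocols. The deposited table holds estimated counts per gene, not normalised, as the authors made them; per the submitters' processing notes, which give no role or order, the tools were Trimmomatic 0.38 and kallisto 0.46.2 and the builds GRCh38 and hg38. The sources used here state neither strand use nor annotation release, and antisense, overlapping and near-identical genes are therefore uncertain.

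After rounding, counts were tested with edgeR 4.0.16 under R 4.3.3. Of 34679 genes, 16601 passed filterByExpr (minimum count 10), and 0.174% of counts were set aside. One quasi-likelihood model (TMM factors, 6 group means, all 22 libraries) gave every contrast through glmQLFit and glmQLFTest; an SE is the log2 change divided by the root of its F value. A gene is called where its Benjamini-Hochberg adjusted p, over all genes, lies under 0.05. Scripts were tested on simulated data. An SE includes the spread among libraries, an SD is that spread, and floors cover counting error only. IDs were matched to GENCODE 29 without version (99.9%).

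Members, the 36 lists (539 genes, 477 tested, 19 not analysed here) and tests were chosen with earlier results of these data known. Named genes were 10 fixed genes, the 12 largest changes each way (called, mean of 5 CPM or more, no overlap, protein coding), 4 per list by adjusted p, the 8 injury genes with the largest difference from wild type each way and 5 list members each way against 6-OHDA alone; the part printed, and other list members named, were chosen after their values were seen. Alternatives were DESeq2 1.42.0, other scaling, no filter, fewer groups or libraries, and a replicate block. Those for rutin, and leaving out replicates 1 to 3 of 6-OHDA alone, were chosen after seeing the data. Some genes of these lists are not reported here by name.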

Additional observations from a re-analysis of the deposited data

Results flagged for a closer look

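In 16 of 170 named genes, 1 of the 4 untreated libraries lay far from the other 3 by Dixon's test, where chance flags about 5% of groups. For LNP1, HIST1H1T and ADM the other 3 were at 0, where any count is flagged, so that rate does not hold for them. Untreated replicate 1 was high for TH (419 CPM, the others 321 to 331), SQSTM1 (150 CPM, 127 to 130) and LNP1 (1.14 CPM, the others 0). Replicate 2 was high for NCAM2 (24.0 CPM, 17.5 to 18.6), SPOCK1 (12.7 CPM, 9.14 to 9.66), PSMD12 (58.5 CPM, 44.6 to 45.5), BNIP3 (113 CPM, 98.2 to 99.9) and ADM (0.0689 CPM, the others 0). Replicate 3 was high for CEBPB (4.13 CPM, 3.03 to 3.14) and FDPS (164 CPM, 149 to 151). Replicate 4 was low for PDZRN3 (46.2 CPM, 64.4 to 67.8) and CTSB (84.2 CPM, 98.4 to 99.5), and high for STC2 (7.14 CPM, 5.00 to 5.31), VEGFA (149 CPM, 122.2 to 125), OLIG2 (60.7 CPM, 47.0 to 49.1) and HIST1H1T (0.286 CPM, the others 0).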

How the results depend on the processing

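Leaving out 1 quercetin or untreated library at a time gave 7733 to 8426 genes called with 6-OHDA and quercetin against untreated cells, of which 7575 to 8194 were called the same way with all libraries. The ranges over the same libraries were 3083 to 3382 for 2-fold calls, 1332 to 1500 and 1026 to 1108 for the shared injury genes, 1664 to 3592 for the difference from wild type and 0.0308 to 0.213 percentage points for the mitochondrial share. With library totals 7609 genes were higher and 2430 lower, and 2785 and 534 injury genes were shared. Without the untreated libraries with 4 barcode numbers, the difference from wild type was called for 1385 genes. Against 6-OHDA alone, 420 genes became 999 with DESeq2, 2 with these groups alone, 84 without its replicate 4, 230 without those barcode libraries 26 to 514 leaving out 1 quercetin or untreated library and 519 to 896 leaving out replicate 1, 2 or 3 of 6-OHDA alone. Against rutin, 1 gene became 28 with library totals, 120 with DESeq2, 19 with these groups alone and 0 to 1 leaving out 1 library (979 to 1637 at an unadjusted p under 0.05). Replicate numbers did not pair the samples (correlations of deviations 0.0568, -0.057 and -0.0209); the replicate block gave 8375 calls against untreated cells, 120 against 6-OHDA alone and 1 against rutin. Of the 175 named genes against untreated cells and SNCG against rutin, 31 changed their call in some alternative. Among genes called in either fit, KARS1 alone turned, to 0.05 with library totals. The cause of these shifts was not tested. At 6386102 to 20667106 counts a library, genes near 0.168 to 0.429 CPM cannot be resolved.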
